A study of Mus musculus with 4 samples.

Results

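The expression of 10 genes of the visual cycle and the retinal pigment epithelium (RPE) was examined in lenses of *S100A4*-/- and wild type (WT) mice. The genes were taken by name, *Rbp3*, *Rlbp1*, *Ttr*, *Lrat*, *Rpe65*, *Rdh5*, *Rdh10*, *Rdh12*, *Rgr* and *Mertk*, and all 10 were found among the 14924 genes of the deposited table. RNA was taken from whole lenses at postnatal day 30, from *S100A4* null mice on a C57BL/6J background and from their WT littermates, with no other allele or treatment named for either group. Each of the 4 libraries, 2 per genotype, was a pool of 6 to 12 lenses, so a value is a mean over animals whose number and sex per pool are not given here. The null allele is described as a mutant strain with no Cre or tissue restriction named.

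The visual cycle is the set of reactions that returns light-exposed retinoid to the form that binds opsin. Photoreceptors reduce all-trans-retinal to retinol and pass it to the RPE, the pigmented cell layer behind the retina, where it is esterified, isomerised and oxidised to cis-retinal and sent back. Müller glia, the radial support cells of the retina, share some of the binding proteins, and the RPE also engulfs shed photoreceptor tips each day. These genes thus belong to more than 1 cell type of the eye.

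The libraries held 81602367 and 74108017 reads on genes in *S100A4*-/- and 70253985 and 68038158 in WT lenses. Values are reads over the size factor of their library, and 1 read was worth 0.856 and 1.01 in the *S100A4*-/- and 1.04 and 1.09 in the WT libraries. A gene with 0 reads could not be told from one of fewer than 3 reads, a value of 2.57 to 3.28 depending on the library, a floor for counting error alone. The targeted gene *S100a4* was at 14.6 and 18.2 in *S100A4*-/- and at 14420 and 14385 in WT lenses, as the labels state. Of 4 widely expressed Y-linked genes, *Eif2s3y* was at 354 and 375 in *S100A4*-/- and at 207 and 187 in WT lenses (log2 fold change 0.88, limma, adjusted p = 2.28e-06). *Ddx3y*, *Kdm5d* and *Uty* had log2 fold changes of 0.43, 0.54 and 0.27 (limma, adjusted p of 0.0143, 0.0513 and 0.476), and the X-linked *Xist* had 0.13 with overlapping groups (limma, adjusted p = 0.430). The part of the sex mix of the pools in the results was not tested. Lens genes were abundant in every library. The 14 lens markers examined, crystallins, connexins and lens regulators among them, held a summed value of 25506400 and 27233400 in *S100A4*-/- and 27485300 and 27526300 in WT lenses, with *Cryaa*, which encodes αA-crystallin, the most abundant, followed by *Crybb2*, *Cryab* and *Crygs*.

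Most of the 10 genes were expressed at low levels in WT lenses. Their summed value was 3788 and 3630 in *S100A4*-/- and 1329 and 1389 in WT lenses. In WT lenses only *Rbp3*, at a mean of 393, was above the median of all genes tested, 308. All 10 had at least 10 reads in each library, the lowest being 15, so none was lost to the filter on low values. Of the 10 genes, 5 were higher in *S100A4*-/- lenses past the threshold, a change of 2-fold or more with an adjusted p (limma, Benjamini-Hochberg over 14780 genes) no larger than 0.05, where 3.65% of all genes tested were. The count was 5 with edgeR, 4 with DESeq2, 3 with quantile normalization and 1 with limma without its variance trend. None was lower past that threshold by limma, DESeq2 or edgeR, where 0.0744% of all genes were, and none was lower at an unadjusted p under 0.05. Without the 2-fold requirement 7 of the 10 were higher, against 5.62% of all genes. In 9 of the 10, both *S100A4*-/- values lay above both WT values, a pattern found in 23.7% of all genes. Their median log2 fold change was 0.97, from 0.20 to 2.34, beside −0.005 for all genes tested. In bulk RNA, more cells of a type and more RNA per cell cannot be told apart.

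**Figure D1:**
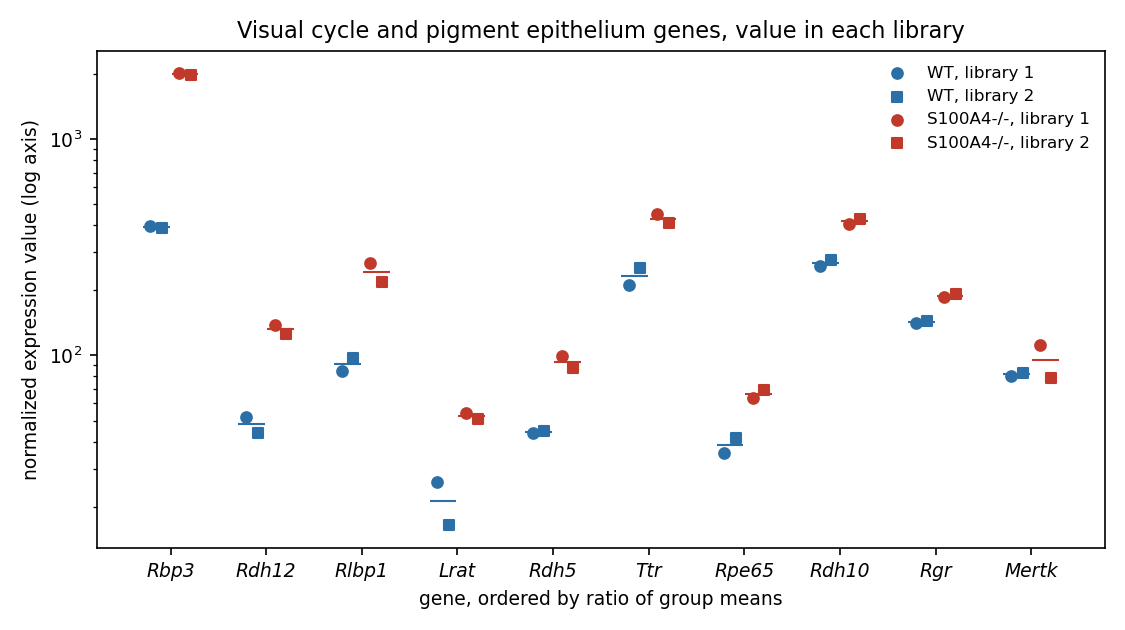
Normalized expression value of each of the 10 genes (log axis) in each of the 4 libraries, with WT in blue, *S100A4*-/- in red, circles for library 1, squares for library 2 and bars for group means. The groups are apart for 9 genes, most widely for *Rbp3* (1992 against 393), and overlap for *Mertk*.

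*Rbp3* had the largest change of the 10. It encodes the interphotoreceptor retinoid-binding protein, which photoreceptors secrete and which carries retinoids between them and the RPE. *Rbp3* (ENSMUSG00000041534, GENCODE M21 on GRCm38, chromosome 14, 33954003 to 33964216) was at 2013 and 1970.2 in the *S100A4*-/- libraries and at 396 and 389.8 in the WT libraries. Both *S100A4*-/- pools were far above both WT pools, and the pools of a genotype were close to each other. Its log2 fold change was 2.34 (SE 0.08, where SE is the standard error, 95% interval 2.18 to 2.50, limma, adjusted p = 4.28e-24), a ratio of means of 5.07, and it ranked 7 by p-value among all genes tested. *Rbp3* made up 53.2% and 54.3% of the summed value of the 10 genes in *S100A4*-/- lenses and 29.8% and 28.1% in WT lenses. Without it the sum of the other 9 genes was 1717 ± 80.8 in *S100A4*-/- and 967 ± 46.8 in WT lenses (mean ± SD, n = 2), a ratio of 1.78 where the full set had 2.73.

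*Rlbp1* encodes the cellular retinaldehyde-binding protein CRALBP, which holds cis-retinoids inside RPE cells and Müller glia. *Rlbp1* (ENSMUSG00000039194, chromosome 7, 79374870 to 79387048) was at 267 and 219 in *S100A4*-/- and at 84.6 and 97.4 in WT lenses. The *S100A4*-/- pools were both higher, and differed from each other by more than the WT pools did. *Rlbp1* rose with a log2 fold change of 1.40 (SE 0.17, 95% interval 1.06 to 1.75, limma, adjusted p = 7.62e-08). *Ttr* encodes transthyretin, a carrier of thyroid hormone and of the plasma retinol-binding protein that is made by the RPE, the choroid plexus and the liver. *Ttr* (ENSMUSG00000061808, chromosome 18, 20665280 to 20674321) was at 449 and 408 in *S100A4*-/- and at 211 and 253 in WT lenses. It too was higher in both *S100A4*-/- pools, but by less than 2-fold, with a log2 fold change of 0.89 (SE 0.12, 95% interval 0.64 to 1.13, limma, adjusted p = 8.96e-07). Without the second WT library the log2 fold change of *Ttr* was 1.02, past the 2-fold threshold (limma, adjusted p = 6.405e-11).

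The RPE enzymes of the cycle had small read numbers. *Lrat* encodes lecithin retinol acyltransferase, which turns retinol into the retinyl esters that *Rpe65* uses. *Lrat* (ENSMUSG00000028003, chromosome 3, 82892579 to 82903973) drew 63 and 50 reads from the *S100A4*-/- and 25 and 15 from the WT pools, values of 54.0 and 50.7 against 26.1 and 16.4. The groups did not overlap, and the WT pools were the more spread. *Lrat* rose with a log2 fold change of 1.29 (SE 0.36, 95% interval 0.57 to 2.02, limma, adjusted p = 0.0168). This call was lost with DESeq2 (adjusted p = 0.136) and with 3 of the 4 libraries left out in turn (limma, adjusted p of 0.122 to 0.296). *Lrat* and *Mertk* overlap antisense genes, *Rbm46os* and *Gm14011*, and the counting is not stated to use strand, so reads there cannot be assigned with certainty.

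*Rpe65* encodes the retinoid isomerohydrolase that makes cis-retinol from the esters, the step that defines the RPE part of the cycle. *Rpe65* (ENSMUSG00000028174, chromosome 3, 159599175 to 159625321) drew 74 and 68 reads from the *S100A4*-/- and 34 and 38 from the WT pools, values of 63.4 and 68.9 against 35.5 and 41.6. Both *S100A4*-/- values were higher, yet *Rpe65* did not pass the test. Its log2 fold change was 0.77 (SE 0.28, 95% interval 0.19 to 1.34, limma, adjusted p = 0.108), which leaves room for a change of more than 2-fold as well as for a slight one. The adjusted p of *Rpe65* lay between 0.0858 and 0.451 over the alternatives.

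The retinol dehydrogenases differed among themselves. *Rdh5* encodes the RPE enzyme that oxidises cis-retinol in the last step of the cycle. *Rdh5* (ENSMUSG00000025350, chromosome 10, 128913593 to 128922888) was at 99.3 and 87.2 in *S100A4*-/- and at 43.9 and 44.9 in WT lenses, with no overlap. Its log2 fold change of 1.05 (SE 0.25, 95% interval 0.54 to 1.56, limma, adjusted p = 0.00425) was just past 2-fold, and the call was lost without the first or the second *S100A4*-/- library (limma, adjusted p of 0.224 and 0.131). It was also lost with a pseudocount of 5 and with quantile normalization, where the log2 fold change was 0.99 and 0.85, and without the variance trend (limma, adjusted p = 0.0586). *Rdh5* overlaps *Bloc1s1* on the same strand, so reads of the shared stretch are uncertain. *Bloc1s1* itself was at 185 and 171 in *S100A4*-/- and at 161 and 164 in WT lenses, with a log2 fold change of 0.13 (limma, adjusted p = 0.738).

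*Rdh10* encodes a retinol dehydrogenase of RPE and Müller glia that also feeds retinoic acid synthesis in many tissues. *Rdh10* (ENSMUSG00000025921, chromosome 1, 16105774 to 16133734) was at 406 and 429 in *S100A4*-/- and at 258 and 275 in WT lenses. It was higher in both *S100A4*-/- pools by less than 2-fold, with a log2 fold change of 0.65 (SE 0.11, 95% interval 0.41 to 0.88, limma, adjusted p = 8.88e-05). Without the first or the second *S100A4*-/- library the adjusted p of *Rdh10* was 0.0511 and 0.0688 (limma). *Rdh12* encodes a retinal reductase of the photoreceptor inner segment. *Rdh12* (ENSMUSG00000021123, chromosome 12, 79208914 to 79222665) was at 139 and 126 in *S100A4*-/- and at 52.2 and 43.8 in WT lenses, well apart. *Rdh12* rose with a log2 fold change of 1.45 (SE 0.23, 95% interval 0.99 to 1.91, limma, adjusted p = 1.26e-05), and without the first *S100A4*-/- library its adjusted p was 0.0730 (limma).

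*Rgr* encodes the RPE retinal G protein-coupled receptor, an opsin of RPE and Müller glia that isomerises retinoid in light. *Rgr* (ENSMUSG00000021804, chromosome 14, 37034909 to 37048964) was at 186 and 193 in *S100A4*-/- and at 142 and 145 in WT lenses. The pools of a genotype nearly coincided and the groups did not overlap, but the log2 fold change of 0.40 (SE 0.16, 95% interval 0.08 to 0.72, limma, adjusted p = 0.142) did not pass the test, and its interval ends below 2-fold. *Mertk* encodes the receptor tyrosine kinase by which RPE cells and macrophages engulf debris. *Mertk* (ENSMUSG00000014361, chromosome 2, 128698956 to 128802894) was at 111 and 79.1 in *S100A4*-/- and at 80.4 and 83.2 in WT lenses. The second *S100A4*-/- value was below both WT values and the first above them. Its log2 fold change was 0.20 (SE 0.22, 95% interval −0.25 to 0.65, limma, adjusted p = 0.722), and without the first *S100A4*-/- library it was −0.049.

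**Figure D2:**
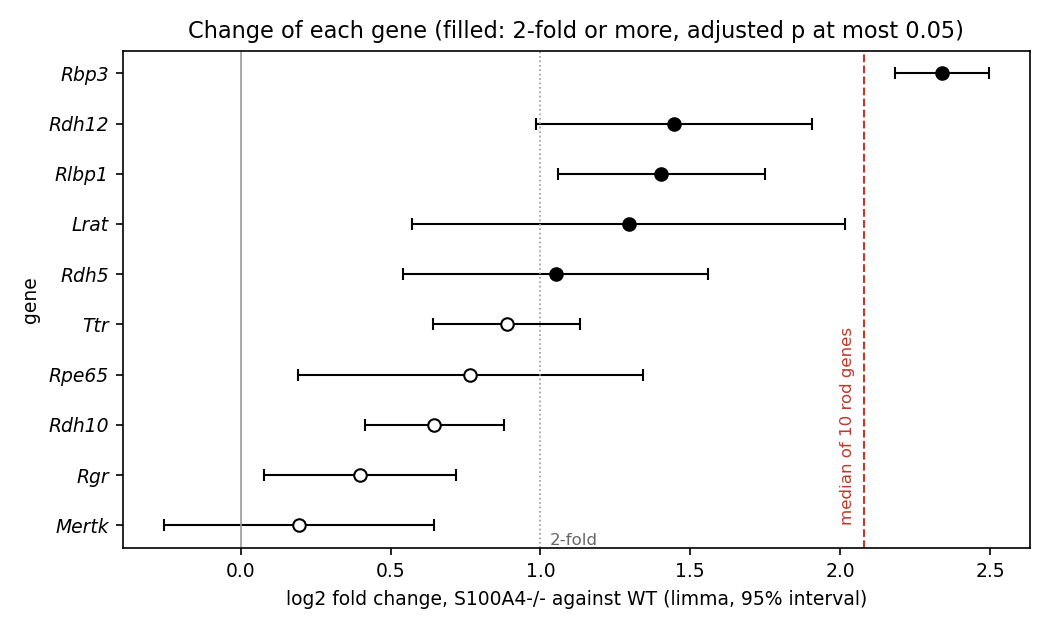
Log2 fold change of the 10 genes in *S100A4*-/- against WT lenses (limma on log2(value + 1)) with 95% intervals, filled where the change was at least 2-fold with an adjusted p of at most 0.05. The intervals of *Rbp3* (2.18 to 2.50) and of *Mertk* (−0.25 to 0.65) mark the ends of the range, and the dashed line is the median of 10 rod genes, 2.08.

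The sizes of the changes were spread widely over the 10 genes. The interval of *Rbp3* lay above the intervals of all 9 others. The upper bounds of *Rgr* (0.72) and *Mertk* (0.65) were below the lower bounds of *Rbp3* (2.18), *Rlbp1* (1.06) and *Rdh12* (0.99). The intervals of *Rpe65*, *Lrat*, *Rdh5* and *Ttr* overlapped one another, so no order among these 4 can be read. Differences between genes were not tested as such, because the genes are not replicates of each other.

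**Figure D3:**
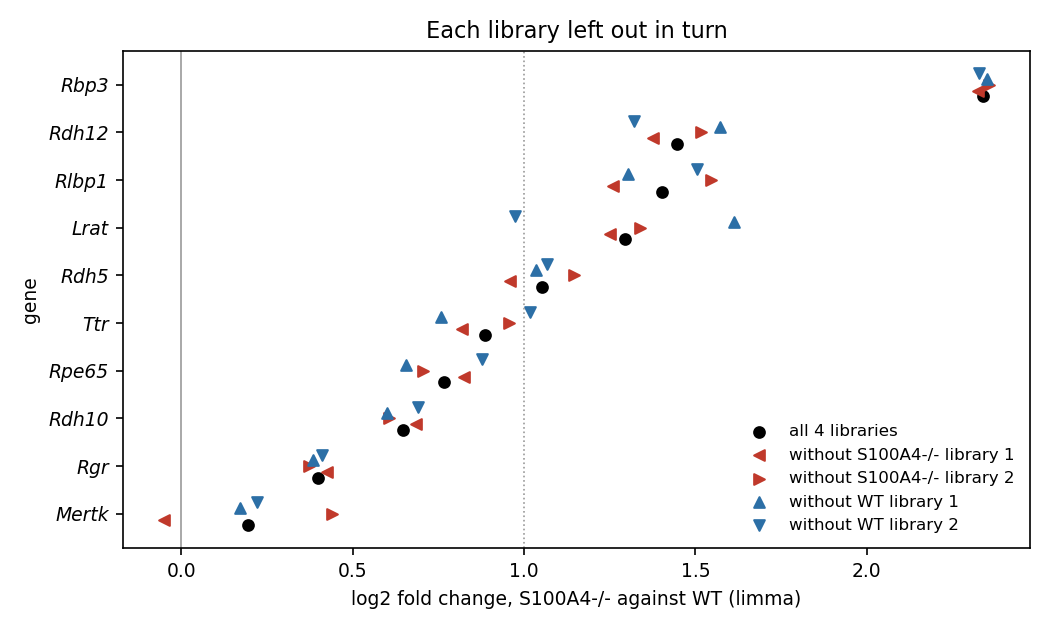
Log2 fold change of the 10 genes (limma) with all 4 libraries (black circles) and without 1 of them (triangles, left and right for *S100A4*-/- library 1 and 2, up and down for WT library 1 and 2, red for a missing *S100A4*-/- and blue for a missing WT library). *Rbp3* stayed between 2.32 and 2.35, *Lrat* spread from 0.98 to 1.61 and *Mertk* crossed 0, from −0.049 to 0.44.

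Levels can be compared between genes once divided by exonic length. In WT lenses the level per kilobase of exon was highest for *Ttr* (196 ± 25.0, SD, n = 2), followed by *Rbp3* (74.2 ± 0.79) and *Rdh10* (64.0 ± 2.88). *Rlbp1* (30.8 ± 3.08) and *Rgr* (29.9 ± 0.37) had overlapping levels per kilobase, as had *Rpe65* (19.9 ± 2.23) and *Mertk* (18.9 ± 0.46), and as had *Rdh12* (16.2 ± 2.00) and *Rdh5* (15.8 ± 0.26). *Lrat* was lowest, at 3.97 ± 1.28 per kilobase. In *S100A4*-/- lenses *Rbp3* (376 ± 5.75 per kilobase) and *Ttr* (361 ± 24.0) stood together at the top with overlapping levels. *Rdh10* (100.3 ± 3.87), *Rlbp1* (82.3 ± 11.6), *Rdh12* (44.6 ± 3.11) and *Rgr* (39.5 ± 0.99) followed with no overlap between neighbours. *Rpe65* (34.2 ± 2.03) and *Rdh5* (33.2 ± 3.07) overlapped, and *Mertk* (22.0 ± 5.26) and *Lrat* (9.78 ± 0.43) were the lowest.

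The 10 genes lie on 8 chromosomes, with *Rbp3* and *Rgr* on chromosome 14 and *Rpe65* and *Lrat* on chromosome 3 as the only ones that share one. Promoter windows of the RefSeq annotation (GRCm38.p6), whose starts can differ from those of GENCODE, were found for 8 of the 10, and their 250 bases before the transcript start were searched on both strands for 3 short motifs. These were TAATCC, the core of sites bound by the homeodomain factors Crx and Otx2, and CACGTG and CATGTG, the E-box and the core of the M-box that Mitf binds in pigment cells. TAATCC was found in 3 of the 8 windows, those of *Rbp3*, *Rpe65* and *Rgr*, and in 5.34% of 11019 tested genes with a window and 6.25% of all 32851 windows. Among the 397 genes with a window that were past the threshold and higher, TAATCC was in 11.3%, CATGTG in 7.81% and CACGTG in 5.79%. CATGTG was found in 3 of the 8 (*Rbp3*, *Rpe65* and *Rlbp1*), and in 7.04% of the tested genes and 12.2% of all windows. CACGTG was found in none of the 8, in 8.40% of the tested genes and in 6.02% of all windows. No match of 1 motif overlapped a match of another. A match of these letters is a description of the window and does not show a bound site. *Rbp3* had TAATCC 69 bases before the start, *Rpe65* 42 and *Rgr* 167, and of these 3 genes only *Rbp3* passed the threshold. The window of *Rlbp1*, which passed with no TAATCC, is shown beside them. Each is written along the gene's strand and ends at the base before the start, with the matches in capitals (GGATTA and CACATG are TAATCC and CATGTG on the other strand), for *Rbp3* at chr14:33953753-33954002 (plus strand), *Rpe65* at chr3:159598931-159599180 (plus strand), *Rgr* at chr14:37049015-37049264 (minus strand) and *Rlbp1* at chr7:79387028-79387277 (minus strand).
Rbp3: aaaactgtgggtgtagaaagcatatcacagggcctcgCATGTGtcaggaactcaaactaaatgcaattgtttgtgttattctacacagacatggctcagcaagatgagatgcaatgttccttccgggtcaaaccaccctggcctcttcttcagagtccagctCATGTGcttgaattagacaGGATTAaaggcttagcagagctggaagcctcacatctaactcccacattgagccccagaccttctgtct
Rpe65: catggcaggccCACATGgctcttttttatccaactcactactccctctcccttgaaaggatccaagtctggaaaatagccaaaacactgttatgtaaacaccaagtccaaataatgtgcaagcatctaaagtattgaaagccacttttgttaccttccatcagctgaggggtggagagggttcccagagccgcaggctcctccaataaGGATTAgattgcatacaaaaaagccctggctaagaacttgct
Rgr: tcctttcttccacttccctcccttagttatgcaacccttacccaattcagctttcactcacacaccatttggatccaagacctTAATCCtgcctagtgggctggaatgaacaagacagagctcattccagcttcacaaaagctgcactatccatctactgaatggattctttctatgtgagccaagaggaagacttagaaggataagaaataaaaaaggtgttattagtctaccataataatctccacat
Rlbp1: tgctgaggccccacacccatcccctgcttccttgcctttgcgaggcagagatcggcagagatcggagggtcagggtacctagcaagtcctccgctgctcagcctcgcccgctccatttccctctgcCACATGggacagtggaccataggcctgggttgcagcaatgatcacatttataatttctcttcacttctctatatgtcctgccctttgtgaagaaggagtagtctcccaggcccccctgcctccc

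CpG is the dinucleotide that marks many promoters of widely expressed genes. The number of CpG in 250 bases was 2 for *Rbp3*, 1 for *Rpe65*, 0 for *Rgr*, 4 for *Rdh5*, 5 for *Rdh12*, 6 for *Rlbp1* and 7 for *Mertk*, and *Lrat* stood apart with 18. The median was 6 over all promoter windows, 16 over the tested genes with a window and 9 over the 397 of these that were past the threshold and higher.

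Other genes of the visual cycle were read from the same fit. Of 14 other visual cycle genes listed, 11 were tested, 1 was higher past the threshold and none was lower, with a median log2 fold change of 0.17. *Rdh8*, the main retinol dehydrogenase of photoreceptor outer segments, rose from 3 and 14 reads in WT to 33 and 35 in *S100A4*-/- lenses, a log2 fold change of 1.99 (limma, adjusted p = 0.0203). DESeq2 called none of the 11. *Abca4*, the flippase of rod and cone discs, was at 1474 and 1478 in *S100A4*-/- and at 948 and 943 in WT lenses (log2 fold change 0.64, SE 0.07, limma, adjusted p = 5.62e-09), which is below 2-fold. *Stra6*, the membrane receptor that takes up retinol in the RPE, was at 97.6 and 123 against 78.3 and 60.2 (limma, adjusted p = 0.0676). *Degs1* and *Rdh14* had log2 fold changes of 0.03 and −0.09, neither past the test.

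Retinol is also turned into retinoic acid, and 16 genes were listed for that branch. None of the 14 tested passed the 2-fold threshold by limma, DESeq2 or edgeR. Of the 14, 3 were at an unadjusted p under 0.05 (limma), as were 2611 of all 14780 genes tested. Those 3 passed the adjusted p alone. *Cyp26a1*, which degrades retinoic acid, was at 347 and 391 in *S100A4*-/- and at 486 and 557 in WT lenses (log2 fold change −0.50, limma, adjusted p = 0.00112). *Aldh1a1*, the most abundant gene of the list and a retinaldehyde dehydrogenase of the lens, was at 15994 and 17598 against 18794 and 18527 (log2 fold change −0.15, limma, adjusted p = 0.0255). *Aldh1a3*, which makes retinoic acid in the ventral eye, had a log2 fold change of 0.33 (limma, adjusted p = 0.0107). The receptor genes *Rxra*, *Rxrb* and *Rxrg* had log2 fold changes of 0.02, −0.03 and −0.05.

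Among 12 other genes of phagocytosis, 2 were higher past the threshold (1 with DESeq2) and none was lower, with a median log2 fold change of −0.05. *Axl*, a sister receptor of *Mertk* found on macrophages and vessels, rose from 49.1 and 39.4 in WT to 101 and 112 in *S100A4*-/- lenses (log2 fold change 1.26, limma, adjusted p = 3.79e-04). *Elmo1*, which links engulfment receptors to the cytoskeleton, rose from 11.5 and 9.85 to 39.4 and 37.5 (log2 fold change 1.76, limma, adjusted p = 0.00747). The *Mertk* ligand gene *Gas6* was at 7344 and 7234 against 6664 and 6850 (log2 fold change 0.11, limma, adjusted p = 0.183). *Itgb5*, the integrin chain that binds shed photoreceptor tips, was the most abundant of the list, with a log2 fold change of −0.02, and *Mfge8* and *Itgav* had −0.05 and −0.08.

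RPE markers outside the visual cycle were divided. Of 16 listed, 13 were tested, 7 were higher past the threshold and none was lower, with a median log2 fold change of 1.27. *Best1*, *Tfec* and *Slc45a2* were not found by name among the 14924 genes, so they were not tested in either genotype. Of the 7 that rose 5 are pigment cell genes, which melanocytes and the pigmented epithelium of iris and ciliary body share with the RPE. *Pmel*, the fibril protein of melanosomes, was at 223 and 292 in *S100A4*-/- and at 44.9 and 48.2 in WT lenses (log2 fold change 2.43, limma, adjusted p = 3.48e-12). *Gpnmb*, a melanosome and macrophage glycoprotein, rose by 3.05 on the log2 scale, and *Tyr* and *Tyrp1*, enzymes of melanin synthesis, by 2.55 and 1.27. *Mlana*, a melanosome protein gene, passed too, at 24.0 and 26.4 against 1.04 and 2.19, the latter no more than 1 and 2 reads and below the floor. It reached the filter on low values through the *S100A4*-/- libraries alone, so its place among the 7 and the 5 depends on them. The tight junction gene *Cldn19* and the potassium channel gene *Kcnj13*, both known from RPE, rose by 1.98 and 1.62. *Slc16a8*, the lactate transporter of the RPE, was at 33.4 and 38.5 against 34.5 and 31.8, with overlapping groups. *Serpinf1*, which encodes the pigment epithelium-derived factor, and *Mitf* had log2 fold changes of 0.15 and −0.15, neither past the test. *Trpm3*, at 10732 and 10081 against 10935 and 11354, and *Mitf*, at 659 and 617 against 723 and 693, were well expressed in WT lenses themselves. The summed value of the list, 12949 and 12345 against 12266 and 12695, was mostly *Trpm3*. No RPE marker tested was at 0 reads in any library.

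**Figure D4:**
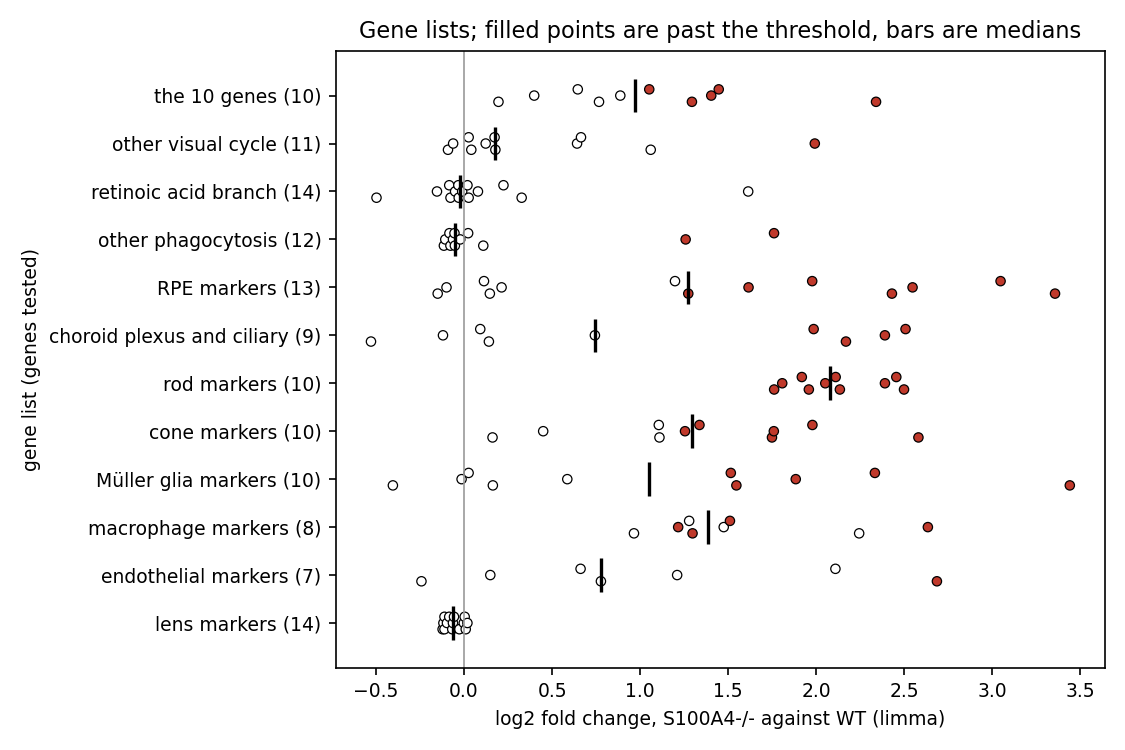
Log2 fold change in *S100A4*-/- against WT lenses (limma) for the genes tested of each list, with a bar at the median and filled points for genes past the threshold. The 10 genes (median 0.97) lie between the rod markers (2.08) and the lens markers (−0.06).

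Markers of other eye cells moved with the 10 genes, and their part in these results was not tested. All 10 rod markers rose, by a median log2 fold change of 2.08, from 1.76 for *Sag* to 2.50 for *Rp1*, and their sum went from 2237 and 2399 in WT to 9887 and 9660 in *S100A4*-/- lenses, led by *Gnat1* and *Prph2*. *Gnat1*, rod transducin, was at 3339 and 3327 against 736 and 782, and *Prph2*, *Pde6a* and *Pdc*, genes of the outer segment and its phototransduction, had log2 fold changes of 2.11, 1.81 and 2.45. The estimate for *Rbp3*, 2.34, lay within the range of the rod markers, and that for *Rdh12*, 1.45, lay below all 10. Of 10 genes listed as cone markers 6 were higher past the threshold (1 with DESeq2), with a sum of 519 and 543 against 198 and 184. The sum was led by *Guca1a*, at 200 and 204 in *S100A4*-/- and at 59.5 and 42.7 in WT lenses. Whether the reads of *Guca1a* came from cones alone was not tested. The 6 were *Guca1a*, *Arr3*, *Opn1sw*, *Pde6h*, *Gngt2* and *Gnat2*, with log2 fold changes of 1.25 to 2.58. The top of this range was *Gngt2*, at 22.3 and 19.3 against 3.13 and 2.19. Its second WT value was below the floor and its first no higher than the floor, so the size of its change is uncertain. *Gngt2* reached the filter on low values through the *S100A4*-/- libraries alone, so its place among the 6 depends on them. The cone opsin gene *Opn1mw* overlapped between groups. Of 10 Müller glia markers 5 were higher, among them *Glul*, glutamine synthetase, at 5387 and 5421 against 1779 and 1923, and *Slc1a3* with a log2 fold change of 1.51. The list ran from −0.40 for *Spc25* to 3.44 for *Crym*, with a median of 1.05, where *Rlbp1* had 1.40. *Apoe* and *Abca8a* rose by 1.88 and 2.33 on the log2 scale, and *Crym* passed at 29.1 and 23.3 against 5.22 and 0. *Crym* reached the filter on low values through the *S100A4*-/- libraries alone, so its place among the 5 Müller glia markers depends on them. *Dkk3*, the most abundant gene of that list, had 0.03 and *Car2* −0.01, the sum was 94999 and 96557 against 83442 and 84415, and *Crym* alone of the list had a library at 0 reads.

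Of 9 choroid plexus and ciliary body markers tested, 4 were higher past the threshold and none was lower, with a sum of 9589 and 9807 in *S100A4*-/- and 8424 and 8544 in WT lenses. *Slc4a5*, *Best2*, *Cldn2* and *Clic6*, known from the fluid-secreting epithelia that also make *Ttr*, rose by 2.39, 2.17, 1.99 and 2.51 on the log2 scale, where *Ttr* had 0.89. *Enpp2* was higher by 0.74 (limma, adjusted p = 3.63e-05), and *Folr1*, the most abundant of the list, had −0.12, *Aqp1* 0.14 and *Aqp4* 0.09. Of 8 macrophage markers tested, 4 were higher past the threshold (1 with DESeq2), *Csf1r*, *C1qa*, *C1qb* and *C1qc*, with log2 fold changes of 1.22, 1.51, 2.63 and 1.30, and the sum was 349 and 292 against 121 and 109, led by *Csf1r*. Of 7 endothelial markers 1, *Kdr*, was higher past the threshold, at 74.5 and 60.8 in *S100A4*-/- and at 9.40 and 9.85 in WT lenses. *Kdr* reached the filter on low values through the *S100A4*-/- libraries alone, so this 1 call depends on them. The sum of the 7 was 221 and 222 against 112 and 142, led by *Kdr* in the *S100A4*-/- and by *Tek* in the WT libraries. *Tek*, *Pecam1* and *Cldn5* had log2 fold changes of −0.24, 0.15 and 0.78. None of the 14 lens markers passed the threshold by limma, DESeq2 or edgeR, and their median log2 fold change was −0.06. Of the 14, 3 were at an unadjusted p under 0.05 (limma), as were 2611 of all 14780 genes tested.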

How the data were processed

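The authors trimmed single-end reads of stranded mRNA libraries with Trim Galore, aligned them to GRCm38 (v73) with STAR, used HTSeq to count single-locus reads by gene, dropped genes below 10 reads everywhere, and divided counts by DESeq2 size factors. The deposited signal values are these quotients, not divided by gene length. Tool versions are not given in the sources used here. All 14924 values of each library lay within 0.01 of a whole number of reads, which gave back the counts. Groups and replicate numbers came from the sample titles, and 0 columns were left without a sample.

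Identifiers were matched to a table of gene names and to GENCODE M21 for coordinates and exonic lengths (14782 of 14924 found in each). The genotypes were compared by limma 3.58.1 (lmFit, eBayes with a variance trend) on log2(value + 1), over the 14780 genes that reached a value of 10 in 1 library or more. This scale understates changes of low genes. The threshold was 2-fold with a Benjamini-Hochberg adjusted p of at most 0.05 over all genes tested. DESeq2 1.42.0 and edgeR 4.0.16 on the recovered counts, other pseudocounts, filters, scalings, the replicate block and leaving out each library were alternatives. A library left out leaves a lone library that is assumed to vary like the other group.

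Replicates differed by more than sampling noise, with a median chi-square per gene of 2.00 (*S100A4*-/-) and 1.08 (WT), where noise gives 0.455. The labels do not say which animals made up a pool, so p-values refer to pools and not to animals. With 2 pools per genotype, limma also draws the variance of a gene from other genes of like level through its trend. The p-values therefore do not measure the spread between the pools of 1 gene alone. For *Rbp3* the adjusted p (limma) was 4.28e-24 with the trend and 0.0301 without it. The genes, lists and marker sets were chosen with earlier results of these data known. The 10 genes are named, and of each list the 4 most abundant genes and up to 6 past the threshold, except 1 gene that is not reported here. Other genes were named with values in view. The fits were tested on simulated data. R 4.3.3, Python 3.11.15, numpy 2.4.6, pandas 2.3.3 and matplotlib 3.10.9 were used.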

Additional observations from a re-analysis of the deposited data

How the results depend on the processing

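Of the 10 genes, 5 passed the threshold, and so did 550 of all genes tested. The 5 of the 10 became 4 with a pseudocount of 5 (without *Rdh5*), 4 with DESeq2 and 4 with a mean value of at least 50 (both without *Lrat*), 3 with quantile normalization (*Rdh12*, *Rlbp1* and *Rbp3*), 1 with limma without its variance trend and 1 with limma's treat test against a 2-fold change (*Rbp3* in both), and 2 to 5 with each library left out in turn, the lowest without the first *S100A4*-/- library (*Rlbp1* and *Rbp3*) and 3 without the second. For all genes the 550 became 287 with a mean value of at least 50, 181 without the trend, 171 with treat, 1028 with no fold threshold and 172 to 559 with a library left out, with 172 without the first and 216 without the second *S100A4*-/- library. The count for all genes was 400 with quantile normalization, 427 with DESeq2 and 553 with a pseudocount of 5. *Lrat* lay below the filter of a mean value of at least 50 and was not tested there, whereas with DESeq2 it was tested and did not pass (adjusted p = 0.136). The log2 fold change of *Mertk* was −0.049 without the first and 0.44 without the second *S100A4*-/- library. Without the variance trend the adjusted p (limma) of *Ttr* was 0.119, that of *Rdh10* 0.0899 and that of *Rlbp1* 0.0698. No other direction changed among the 10 genes, and *Rbp3* passed in every alternative run. Same-numbered libraries of the 2 groups did not deviate together (correlation 0.01 over 14780 genes), so the numbers were not taken as pairs. With the replicate block 591 genes passed, and the same 5 of the 10. *Rpe65* did not pass in any alternative, and with 34 to 74 reads a library its interval still spans 2-fold.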
